A study of Mus musculus with 4 samples.

Results

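The genes described here belong to the antioxidant response governed by the transcription factor NRF2. They are 49 genes for NRF2 and its inhibitor, for the synthesis and use of glutathione, for the thioredoxin system, for the supply of NADPH and for the handling of iron and heme. They were taken by exact gene symbol from a list drawn up with earlier results of these data known. All 49 were found among the 20611 genes of the count tables, and all 49 passed the filter on low counts that left 15068 genes for testing.

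RNA was sequenced from the back skin of male BALB/c mice, 8 to 9 weeks old. Each animal had 47 mg of a 5% imiquimod (IMQ) cream a day from day 1 to day 5, and skin was taken on day 6. Imiquimod activates Toll-like receptor 7 and gives a psoriasis-like dermatitis in mice. There was 1 library of skin that also received a lotion with IDMF (IMQ+IDMF), 2 of skin that received the vehicle lotion (IMQ+VEH, replicates 1 and 2) and 1 of skin with imiquimod and no lotion (IMQ). Lotions followed the cream by about 1 h. IDMF, isosorbide di-(methyl fumarate), is a pro-drug from which dimethyl fumarate is meant to form. The sources used here do not give its dose. All groups share the imiquimod, and skin without it is not analysed here. The study describes the 4 libraries as independent biological replicates.

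NRF2, the product of Nfe2l2, is held in the cytoplasm and marked for degradation by KEAP1, a protein with reactive cysteines. Electrophiles such as fumarates modify these cysteines, NRF2 then enters the nucleus, and genes with antioxidant response elements are transcribed. In skin, NRF2 target genes are known to defend keratinocytes against oxidants and ultraviolet light. The study's comparison of IMQ+IDMF with IMQ+VEH asks what the compound changes beyond the lotion, and the comparison of IMQ+VEH with IMQ asks what the lotion itself changes.

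Total counts were 21991604 in IMQ+IDMF, 26639628 and 21167149 in IMQ+VEH replicates 1 and 2, and 26337985 in IMQ. The 49 genes together took 0.696% of the counts in IMQ+IDMF, 0.629% and 0.676% in the IMQ+VEH replicates, and 0.546% in IMQ. The library with imiquimod alone thus had the lowest share. All 7 basal keratinocyte markers looked up (among them Krt5 and Krt14) had counts in every library. Only the IMQ+VEH pair was replicated, so each test below rests on the spread of that pair and cannot separate animals from handling. That spread was largely pooled over genes (1 residual degree of freedom per gene, against 11.2 from the pool). The SE of a gene is therefore not its own difference within the pair.

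Levels were compared between genes in FPKM (fragments per kilobase and library size), a value per transcript length, as deposited. The ferritin genes stood highest. Fth1, the heavy chain that oxidises iron for storage, had 709 FPKM in IMQ+IDMF, 894 and 689 FPKM in IMQ+VEH replicates 1 and 2, and 492 FPKM in IMQ. Ftl1, the light chain, had 614 FPKM in IMQ+IDMF, 635 and 539 FPKM in the IMQ+VEH replicates, and 321 FPKM in IMQ. Both ferritin genes were lowest in IMQ. Gpx1, the cytosolic glutathione peroxidase, had 357 FPKM in IMQ+IDMF, 404 and 383 FPKM in IMQ+VEH, and 473 FPKM in IMQ, with IMQ the highest of the 4. At the other end, Osgin1, an oxidative stress-induced growth inhibitor, ranged between 1.63 FPKM (IMQ) and 4.17 FPKM (IMQ+VEH replicate 2). Mean levels over the 4 libraries thus ran from 2.71 FPKM (Osgin1) to 696 FPKM (Fth1).

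**Figure D1:**
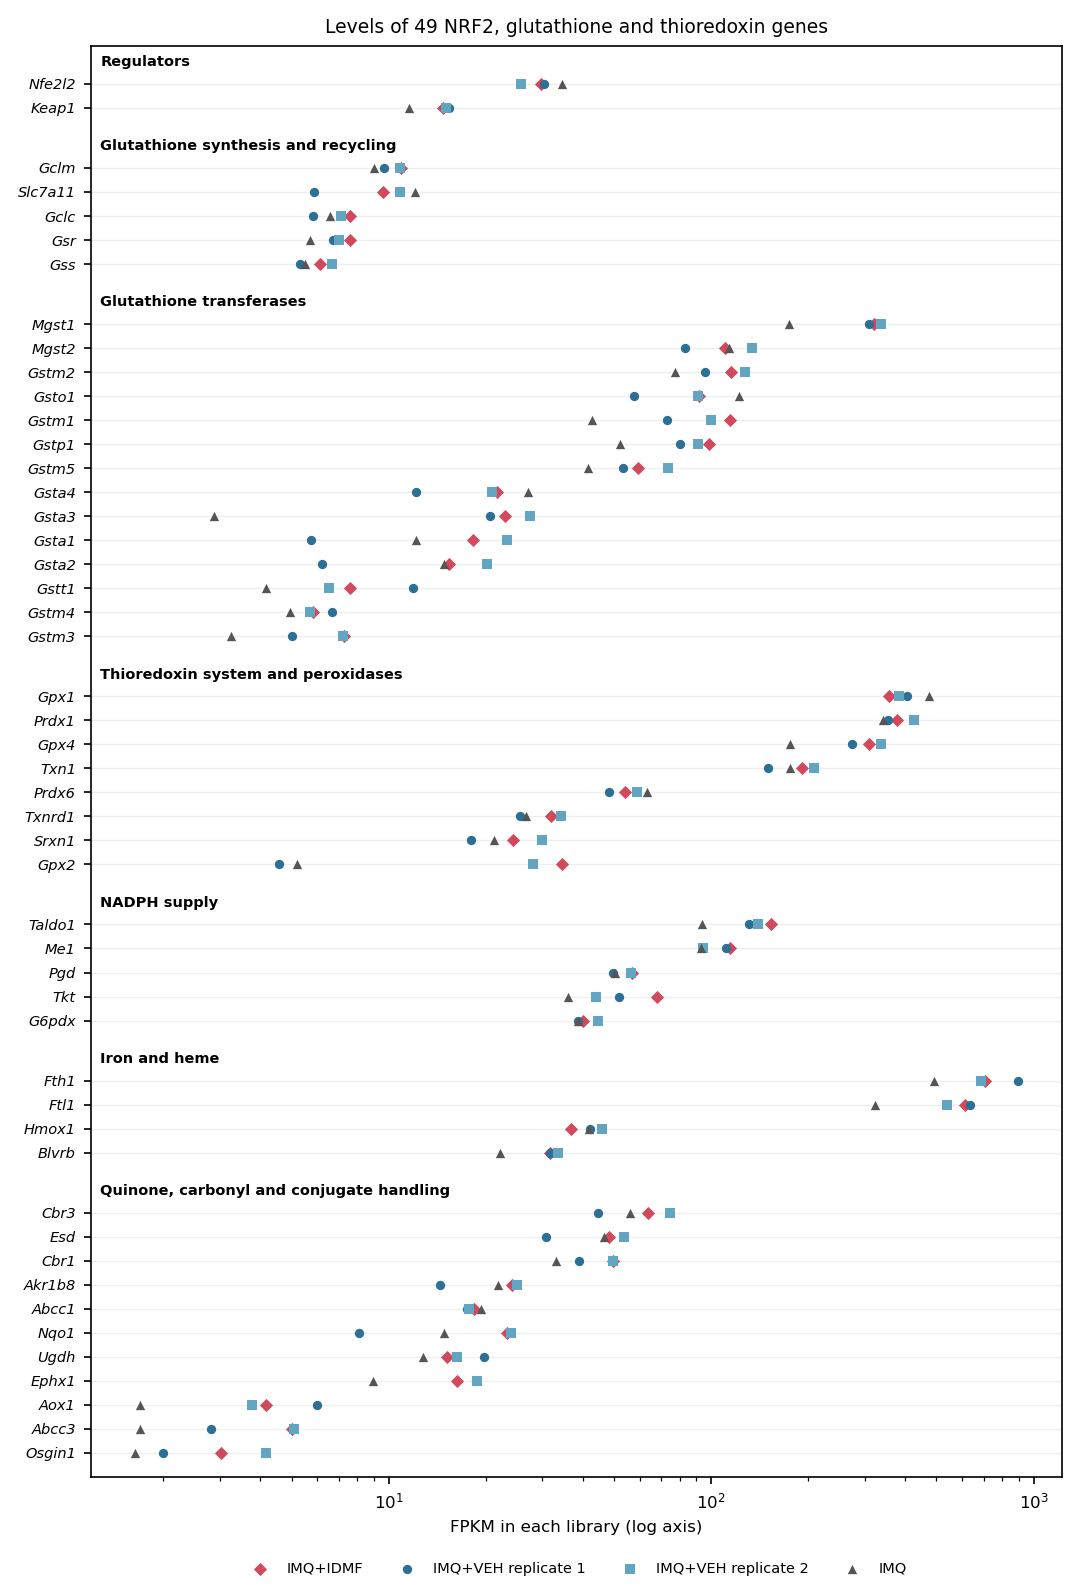
Levels of the 49 genes in FPKM on a log axis, by role, with 1 symbol per library (IMQ+IDMF, IMQ+VEH replicates 1 and 2, IMQ). Fth1, at 492 to 894 FPKM, had the highest mean, and IMQ+VEH replicate 1 is the lowest symbol for Nqo1, Gpx2, Gsta1 and Slc7a11.

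Reads of 50 bases cannot always be placed on 1 gene. Of the 49 genes, 25 had under 1% of their 50-base transcript windows in a transcript of another annotated gene, and 15 had over 10%. The share was 90.6% for Ftl1 (73.4% with the pseudogene Ftl1-ps1), 89.7% for Gsta1 (82.9% with Gm3776), 64.2% for Gsta2 (44.8% with Gsta1), 62.3% for Gstp1 (all with Gstp2), 61.7% for Gpx4 (Gpx4-ps2), 32.8% for Me1, 28.8% for Gstm3, 23.1% for Gstm1 and 18.9% for Gpx2 (Gpx2-ps1). The sources used here do not say how such reads were counted, so the values of these genes may include or lose reads of their relatives. Nqo1, Gclc, Gsta3, Gsta4, Gsto1, Tkt, Hmox1, Abcc3 and Aox1 had no shared window.

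The promoter windows of the RefSeq table (build GRCm38.p6) covered 42 of the 49 genes (not Gclc, Gsr, Gsta4, Prdx6, Hmox1, Abcc1 and Abcc3). Each holds 250 bases before the start and 50 after it. They were searched on both strands for TGACNNNGC, the core letters of the antioxidant response element, and for TGANTCA, the AP-1 letters, which can overlap the first. The element core was found in the windows of 12 of 42 members (28.6%) and of 14.0% of 27025 genes, and the AP-1 letters in 8 of 42 (19.0%) and 8.97%. The 12 were Nfe2l2, Gclm, Gsta3, Gstm5, Mgst1, Txnrd1, Srxn1, Prdx1, G6pdx, Pgd, Me1 and Ugdh. A match describes letters and is not a measured site. The 250 bases before the start are shown for 4 of them, 5′ to 3′ on the gene's strand, with the match in capitals. A match on the opposite strand appears as its reverse complement. Gsta3 is shown because it alone passed the test in a comparison below. Gclm and Txnrd1 are shown as common NRF2 readouts whose values follow, and Prdx1 as a peroxiredoxin gene whose fold change follows. The Txnrd1 window belongs to 1 of its 3 annotated starts, and the other 2 have no match. In Prdx1 the match overlaps AP-1 letters.
Gsta3 (chr1:21240335-21240584, plus strand): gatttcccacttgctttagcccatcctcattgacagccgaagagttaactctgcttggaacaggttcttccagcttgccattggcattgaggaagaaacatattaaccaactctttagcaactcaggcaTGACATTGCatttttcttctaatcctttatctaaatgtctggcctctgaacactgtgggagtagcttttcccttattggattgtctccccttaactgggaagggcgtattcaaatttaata
Gclm (chr3:122245307-122245556, plus strand): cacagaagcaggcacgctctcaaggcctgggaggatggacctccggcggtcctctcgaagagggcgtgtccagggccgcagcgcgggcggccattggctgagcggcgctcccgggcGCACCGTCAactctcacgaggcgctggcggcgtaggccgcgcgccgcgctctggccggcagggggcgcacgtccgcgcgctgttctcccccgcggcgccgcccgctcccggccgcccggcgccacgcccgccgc
Txnrd1 (chr10:82858956-82859205, plus strand): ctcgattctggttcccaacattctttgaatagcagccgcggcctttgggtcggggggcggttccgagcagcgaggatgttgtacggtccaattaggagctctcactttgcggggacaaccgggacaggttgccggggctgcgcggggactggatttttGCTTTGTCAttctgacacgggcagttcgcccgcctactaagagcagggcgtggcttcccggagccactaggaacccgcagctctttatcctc
Prdx1 (chr4:116685349-116685598, plus strand): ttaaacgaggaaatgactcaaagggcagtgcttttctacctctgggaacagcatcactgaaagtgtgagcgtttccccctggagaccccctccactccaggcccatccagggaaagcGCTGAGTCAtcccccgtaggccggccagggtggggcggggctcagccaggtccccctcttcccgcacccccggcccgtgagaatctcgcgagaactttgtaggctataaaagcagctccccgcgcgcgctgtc

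In skin that received IDMF, the antioxidant genes lay close to those of IMQ+VEH replicate 2 and mostly above those of replicate 1. Relative to IMQ+VEH replicate 2, 34 of 49 members were lower and 15 higher. The median difference was -0.08 in log2 CPM (counts scaled to library size), against 0.004 over all genes. Relative to replicate 1, 41 were higher and 8 lower, with a median of 0.32, against -0.004 over all genes. The fitted log2 fold change of IMQ+IDMF over IMQ+VEH had a median of 0.11 over the members, against -0.008 over all 15068 genes, and its direction depended on which IMQ+VEH library was kept. By edgeR's quasi-likelihood test with Benjamini-Hochberg adjustment, 0 of 49 members were called (0.00% of all genes) and 0 had an unadjusted p under 0.05, against 306 of all genes. DESeq2 called 0 members and 0 genes, with 182 genes at an unadjusted p under 0.05. The smallest adjusted p over all genes by edgeR was 0.267.

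IMQ+IDMF lay above both IMQ+VEH libraries for 12 members (27.6% of all genes did) and below both for 5 (27.4%). It lay above all 3 other libraries for 9 members (19.1%) and below all 3 for 2 (19.4%). The members' shares were 24.5%, 10.2%, 18.4% and 4.08%. Shares above were thus near those of all genes, and shares below were smaller. For most members IMQ+IDMF fell between the IMQ+VEH libraries. Of the cell type markers, 7 of 7 for basal keratinocytes and 10 of 10 for hair follicle lay above both IMQ+VEH libraries in IMQ+IDMF, and 10 of 10 for macrophages and dendritic cells and 8 of 10 for fibroblasts lay below both. Basal keratinocyte markers summed to 11830 CPM in IMQ+IDMF, 9429 and 10090 CPM in IMQ+VEH, and 15990 CPM in IMQ. Krt14 gave most of the IMQ sum, with 9905 CPM in IMQ and 5334 CPM in IMQ+IDMF. The median difference of these markers, IMQ+IDMF minus IMQ, was 0.098 in log2 CPM. The part of these cell types in the members' values was not tested.

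Distances between libraries were taken over all 49 genes, as the root mean square (RMS) difference in log2 CPM. For IMQ+IDMF against IMQ+VEH replicate 2 it was 0.21, and 35 of 49 (71.4%) lay within 0.2. Against replicate 1 the RMS was 0.73, and 12 of 49 (24.5%) lay within 0.2. The IMQ+VEH replicates differed from each other by 0.80 over the members, with 11 of 49 (22.4%) within 0.2. An RMS weighs large differences most, and the largest within the pair were those of Gpx2 (2.72), Gsta1 (2.12), Gsta2 (1.81) and Nqo1 (1.68). For the 10987 genes with a mean count at least that of the least abundant member, the 3 RMS values were 0.31, 0.38 and 0.44. Of these genes, 55.4% and 52.3% lay within 0.2 for IMQ+IDMF against replicates 2 and 1, and 40.1% within the IMQ+VEH pair. The members thus had a larger RMS within the IMQ+VEH pair than these genes, and a smaller one between IMQ+IDMF and replicate 2. These genes share only the members' lowest mean count and were not otherwise matched to them in depth. No test was made of these distances.

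**Figure D2:**
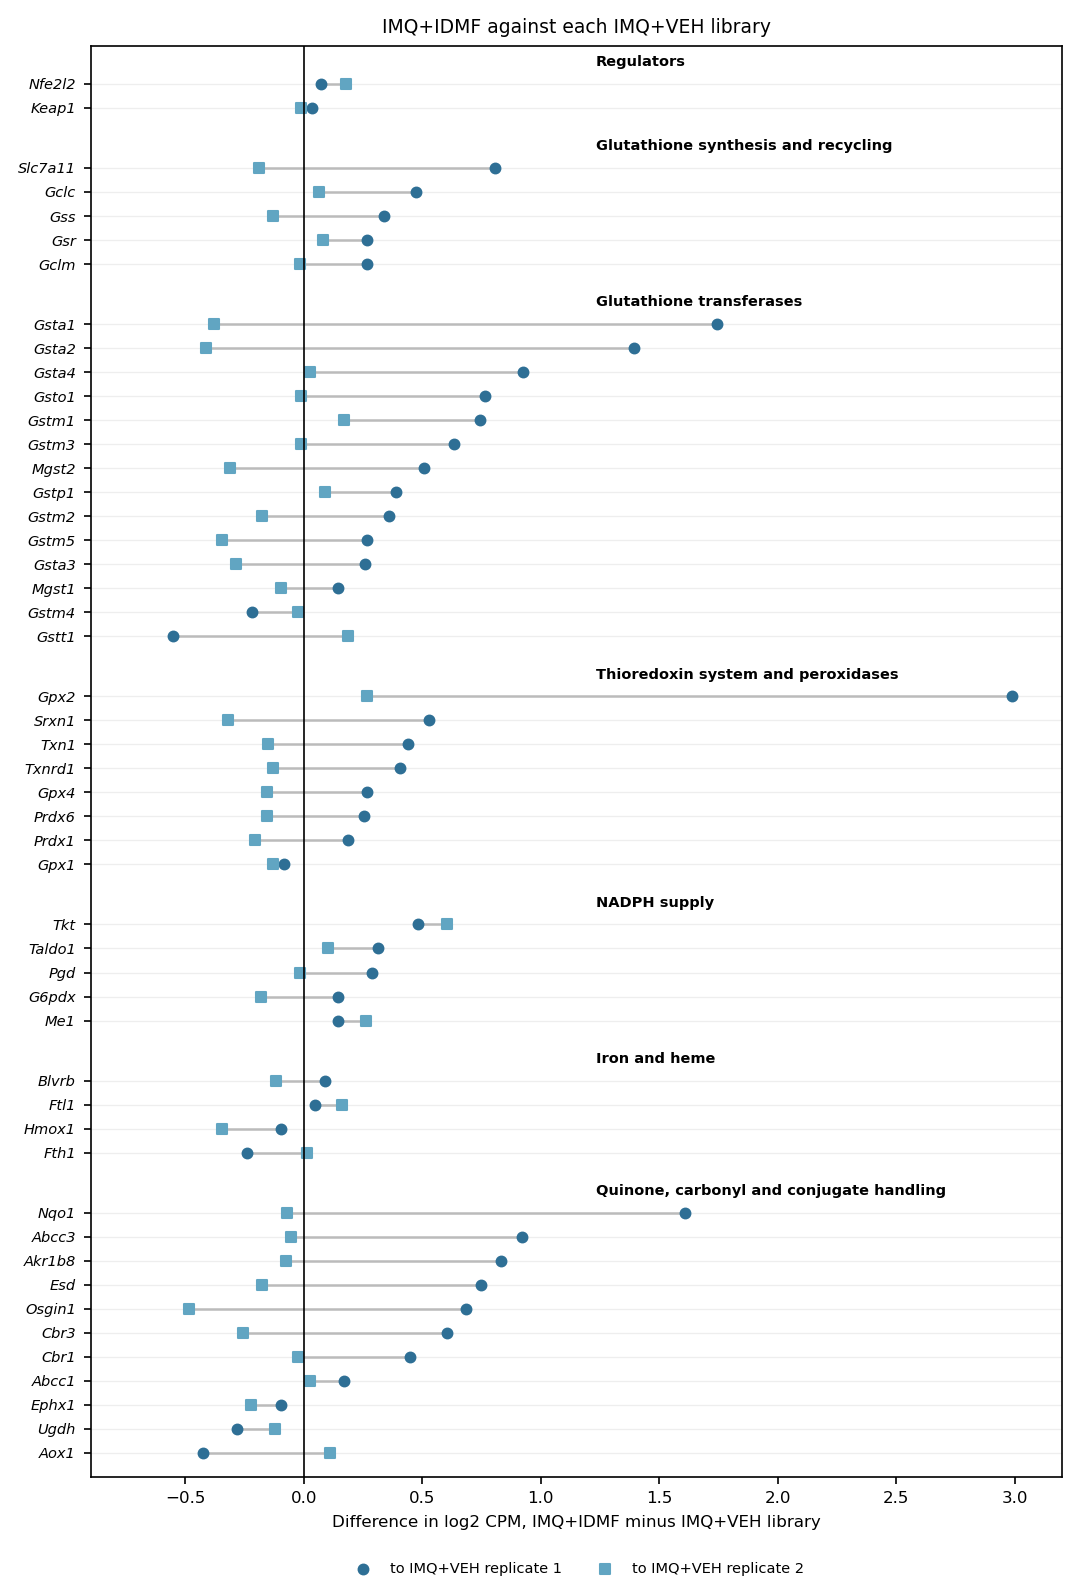
Difference in log2 CPM of IMQ+IDMF minus each IMQ+VEH library for the 49 genes, by role (circles, to replicate 1; squares, to replicate 2; the line joins the pair). Squares lie between -0.48 and 0.61, while circles reach 1.61 for Nqo1 and 2.99 for Gpx2.

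Among the regulators, Nfe2l2 had 92.9 CPM in IMQ+IDMF, 88.4 and 82.1 CPM in IMQ+VEH replicates 1 and 2, and 112.7 CPM in IMQ. Its log2 fold change for IMQ+IDMF over IMQ+VEH was 0.12 (SE 0.26), and IMQ stood highest. Keap1, the inhibitor, had 63.4 CPM in IMQ+IDMF, 61.8 and 63.9 CPM in IMQ+VEH, and 50.9 CPM in IMQ (log2 fold change 0.01, SE 0.26, for the compound). Neither regulator showed a difference between IMQ+IDMF and IMQ+VEH beyond 1 SE. Exons of another gene overlap Keap1 on the opposite strand (Gm16754), as they do Gclm, Gss, Gstm5, G6pdx, Me1 and Ftl1. Whether counting used the strand is not stated, so such reads cannot be told apart.

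Among the common readouts of NRF2, Nqo1, Srxn1 and Slc7a11 differed by over 1.5-fold between the IMQ+VEH replicates, and Hmox1, Gclc, Gclm and Txnrd1 by less. Nqo1, a quinone reductase, had 43.2 CPM in IMQ+IDMF, 14.1 and 45.4 CPM in IMQ+VEH replicates 1 and 2, and 28.9 CPM in IMQ. IMQ+IDMF was level with replicate 2 and above replicate 1, and the IMQ value lay between the IMQ+VEH values. The log2 fold change over IMQ+VEH was 0.54 (SE 0.49). Srxn1, the sulfiredoxin that restores oxidised peroxiredoxins, had 87.5 CPM in IMQ+IDMF, 60.7 and 109.2 CPM in IMQ+VEH, and 79.7 CPM in IMQ (log2 fold change 0.05, SE 0.33). Hmox1, the heme oxygenase, was lowest in IMQ+IDMF, with 69.7 CPM against 74.5 and 88.7 CPM in IMQ+VEH and 82.9 CPM in IMQ (log2 fold change -0.23, SE 0.27). Hmox1 therefore did not follow Nqo1 across the libraries.

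In glutathione synthesis and recycling, 2 of 5 members (Gclc and Gsr) lay above both IMQ+VEH libraries in IMQ+IDMF, and the median log2 fold change was 0.17. Gclc, the catalytic subunit of glutamate-cysteine ligase, had 33.6 CPM in IMQ+IDMF, 24.2 and 32.2 CPM in IMQ+VEH, and 30.6 CPM in IMQ (log2 fold change 0.26, SE 0.30). Gclm, the modifier subunit, had 28.1 CPM in IMQ+IDMF, 23.4 and 28.4 CPM in IMQ+VEH, and 24.3 CPM in IMQ (0.12, SE 0.30). In log2 CPM, IMQ+IDMF differed from replicate 2 by 0.063 for Gclc and -0.015 for Gclm. Slc7a11, the cystine transporter that feeds this pathway, had 119.8 CPM in IMQ+IDMF, 68.4 and 136.8 CPM in IMQ+VEH, and 157.6 CPM in IMQ (0.23, SE 0.36). Slc7a11 was highest in IMQ and lowest in IMQ+VEH replicate 1, as were Gsta4, Gsto1, Prdx6 and Abcc1. Gss, glutathione synthetase, and Gsr, glutathione reductase, had log2 fold changes of 0.09 (SE 0.37) and 0.17 (SE 0.30).

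Of the 14 glutathione transferases, which conjugate glutathione to electrophiles, 3 lay above both IMQ+VEH libraries in IMQ+IDMF (Gsta4, Gstm1 and Gstp1) and 1 below both (Gstm4). Gstm1 had 172.1 CPM in IMQ+IDMF, 102.7 and 153.0 CPM in IMQ+VEH, and 67.1 CPM in IMQ (log2 fold change over IMQ+VEH 0.43, SE 0.30). Its order was IMQ+IDMF, then both IMQ+VEH libraries, then IMQ. Gsta1 had 16.6 CPM in IMQ+IDMF, 4.88 and 21.6 CPM in IMQ+VEH, and 11.6 CPM in IMQ (0.33, SE 0.61). Gsta2 followed it, with 13.9 CPM in IMQ+IDMF, 5.24 and 18.5 CPM in IMQ+VEH, and 14.0 CPM in IMQ (0.23, SE 0.56). These 2 genes lie in 1 cluster on chromosome 9 (Gsta1 at 78230656 to 78242684 and Gsta2 at 78331018 to 78355788, GRCm38), share many windows as given above, and so are not independent readouts. The other members had fold changes from -0.24 (Gstt1, SE 0.46) to 0.41 (Gsta4, SE 0.38).

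In the thioredoxin system and among the peroxidases, Gpx2 had the highest fitted change of all 49 members. Gpx2, an epithelial glutathione peroxidase, had 41.1 CPM in IMQ+IDMF, 5.10 and 34.1 CPM in IMQ+VEH replicates 1 and 2, and 6.50 CPM in IMQ. IMQ+IDMF and IMQ+VEH replicate 2 were high, and the other 2 libraries low. The log2 fold change over IMQ+VEH was 1.07 with an SE of 0.68 (adjusted p = 1 by edgeR), and the difference was 2.99 to replicate 1 and 0.27 to replicate 2. Txnrd1, thioredoxin reductase, had 139.1 CPM in IMQ+IDMF, 104.9 and 152.1 CPM in IMQ+VEH, and 122.7 CPM in IMQ (0.12, SE 0.30). Txn1, its substrate thioredoxin, and the peroxiredoxin genes Prdx1 and Prdx6 also lay between the IMQ+VEH libraries, with fold changes of 0.12 (SE 0.33), -0.02 (SE 0.41) and 0.04 (SE 0.30). Gpx4, which reduces lipid peroxides in membranes, had 321 CPM in IMQ+IDMF, 267 and 358 CPM in IMQ+VEH, and 191 CPM in IMQ (0.04, SE 0.34). Gpx1 was the lowest in IMQ+IDMF, at 416 CPM against 441 and 455 CPM in IMQ+VEH and 577 CPM in IMQ (-0.11, SE 0.37).

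Genes for NADPH supply gave the only other member, besides Gpx2, for which IMQ+IDMF stood apart from all 3 libraries by 0.2 or more. Tkt, transketolase of the pentose phosphate pathway, had 283 CPM in IMQ+IDMF, 202.5 and 186.0 CPM in IMQ+VEH, and 157 CPM in IMQ. IMQ+IDMF was the highest, by 0.48 and 0.61 in log2 CPM to the IMQ+VEH replicates, and these differed by only 0.12 from each other. The log2 fold change was 0.54 (SE 0.30, adjusted p = 1 by edgeR). Taldo1, transaldolase of the same branch, had 226 CPM in IMQ+IDMF, 182 and 211 CPM in IMQ+VEH, and 145 CPM in IMQ (0.21, SE 0.30). Me1, malic enzyme, had 483 CPM in IMQ+IDMF, 437 and 403 CPM in IMQ+VEH, and 409.8 CPM in IMQ (0.20, SE 0.36). These 3 of 5 members lay above both IMQ+VEH libraries, while G6pdx and Pgd, the oxidative enzymes of the pathway, lay between them. G6pdx had 133.2 CPM in IMQ+IDMF, 120.6 and 151.0 CPM in IMQ+VEH, and 135.0 CPM in IMQ (-0.03, SE 0.29), and Pgd had a log2 fold change of 0.13 (SE 0.29).

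Among the other detoxifying genes and those of iron and heme, IMQ+IDMF was mostly within the IMQ+VEH range. Of 11 genes for quinone, carbonyl and conjugate handling, 1 was above both (Abcc1, an export pump for glutathione conjugates; 0.10, SE 0.28) and 2 were below both (Ephx1, an epoxide hydrolase, and Ugdh, which makes UDP-glucuronate; -0.16, SE 0.29, and -0.21, SE 0.27). Cbr3, a carbonyl reductase and the gene with the highest mean FPKM of the 11, had 84.7 CPM in IMQ+IDMF, 55.7 and 101.2 CPM in IMQ+VEH, and 78.1 CPM in IMQ (0.11, SE 0.33). Akr1b8, Cbr1, Esd and Osgin1 also lay between the IMQ+VEH libraries. Of 4 iron and heme genes, Ftl1 was above both and Hmox1 below both. Fth1 had a log2 fold change of -0.12 (SE 0.41), Ftl1 of 0.10 (SE 0.38) and Blvrb, a biliverdin reductase, of -0.02 (SE 0.30).

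For many members the IMQ+VEH replicates stood far apart. Replicate 2 was over 1.5-fold above replicate 1 for 17 of 49 members (6.34% of all genes) and over 1.5-fold below it for 1, Gstt1 (18.3%). Replicate 1 was the lowest of the 4 libraries for 22 members (27.7%). Differences of replicate 2 to replicate 1 reached 2.72 in log2 CPM for Gpx2, 2.12 for Gsta1, 1.81 for Gsta2, 1.68 for Nqo1, 1.17 for Osgin1 and 1.00 for Slc7a11. The 17 members comprised 7 transferases, 6 genes for quinone, carbonyl and conjugate handling, 3 of the thioredoxin and peroxidase group, and Slc7a11. None of the NADPH, iron and heme or regulator genes was among them. Animal and handling cannot be told apart within this pair.

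Markers of several cell types differed within the same pair. The summed CPM of the 10 differentiated keratinocyte markers found (of 11 listed) was 52790 in replicate 2 and 40670 in replicate 1, and 9 of the 10 were higher in replicate 2. The 10 fibroblast markers summed to 3492 in replicate 2 and 6666 in replicate 1, and 0 of 10 were higher in replicate 2. Macrophage and dendritic markers summed to 464 CPM in replicate 2 and 825 CPM in replicate 1 (1 of 10 higher in replicate 2). Endothelial markers summed to 113 CPM in replicate 2 and 237 CPM in replicate 1 (0 of 8 higher in replicate 2). In IMQ+IDMF these sums were 45680 for differentiated keratinocytes, 2323 for fibroblasts, 314 for macrophages and 163 for endothelium, and in IMQ 52290, 1817, 576 and 107. No marker of these 4 lists was at 0 in any library. Whether cell makeup had a part in the members' differences was not tested, and in bulk skin fewer cells of a type and less RNA per cell cannot be told apart.

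**Figure D3:**
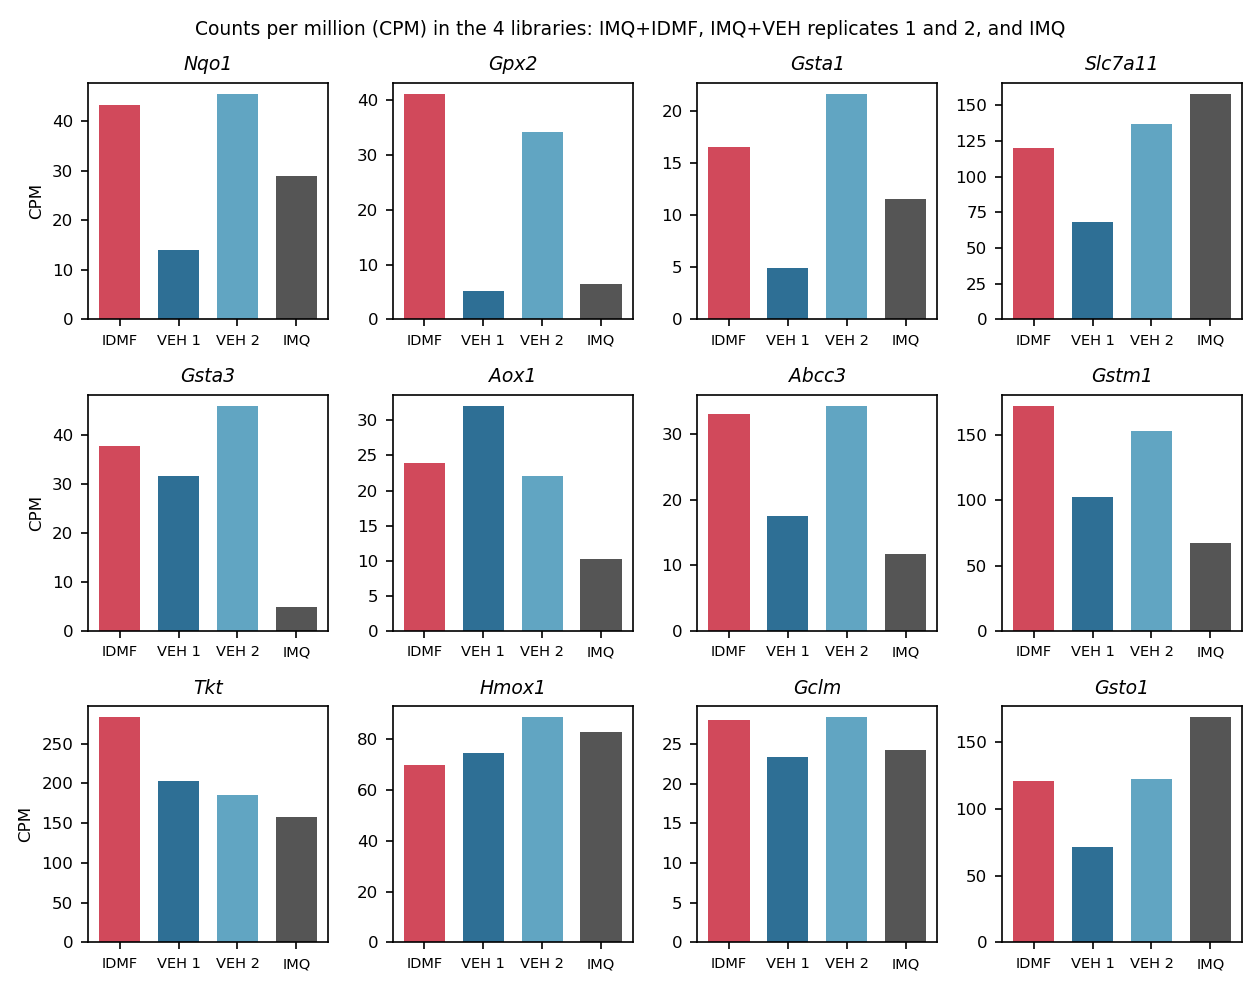
CPM of 12 members, 1 panel each, with 1 bar per library (IMQ+IDMF, IMQ+VEH replicates 1 and 2, IMQ) from 0. Nqo1, Gpx2, Gsta1 and Slc7a11 are lowest in IMQ+VEH replicate 1, Gsta3, Aox1, Abcc3 and Gstm1 are lowest in IMQ, and Tkt is highest in IMQ+IDMF at 283 CPM.

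Against imiquimod alone, skin with the vehicle lotion had more RNA of 1 transferase. Gsta3, an alpha-class glutathione transferase (chromosome 1, 21240589 to 21265661, GRCm38), rose to 31.6 and 46.0 CPM in IMQ+VEH replicates 1 and 2, against 4.85 CPM in IMQ. Its log2 fold change was 3.0 (SE 0.38), with an adjusted p of 0.00328 by edgeR. It also passed with DESeq2 and with each of the 4 other scalings and filters tried. Of the 49 members, 1 was called higher (0.338% of all genes) and 0 lower (0.325%). In IMQ+IDMF it had 37.8 CPM, between the IMQ+VEH values, so all 3 lotion libraries were high. The authors' deposited FPKM gave 22.9 in IMQ+IDMF, 20.7 and 27.4 in IMQ+VEH, and 2.87 in IMQ.

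The members as a whole leaned the same way. Both IMQ+VEH libraries were above IMQ for 23 of 49 (33.5% of all genes) and both below for 7 (35.0%). The median log2 fold change of IMQ+VEH over IMQ was 0.17, against 0.003 over all genes, but the IMQ+VEH libraries disagreed. Replicate 2 was above IMQ for 41 members, with a median of 0.33, and replicate 1 for 24, with a median of -0.06. Over all genes these medians were 0.003 for replicate 2 and -0.021 for replicate 1. IMQ was the lowest of the 4 libraries for 23 members (28.9% of all genes). All 3 lotion libraries were over 1.5-fold above IMQ for 7 members (6.55%) and over 1.5-fold below it for 0 (3.11%). These 7 were Gsta3, Gstm1, Gstt1, Mgst1, Ftl1, Ephx1 and Aox1.

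By role, 9 of 14 transferases and 3 of 4 iron and heme genes were above IMQ in both IMQ+VEH libraries, with group medians of 0.49 and 0.52 in fitted log2 fold change. The 5 genes of glutathione synthesis had a median of -0.02, with 1 above (Gsr) and 1 below (Slc7a11) in both. With Gsta3, 9 members had an unadjusted p under 0.05 by edgeR, against 1327 of all 15068 genes. The 8 beside Gsta3 did not pass the adjusted threshold, and 1 of them, Gsto1, was lower in IMQ+VEH (values below). Aox1, an aldehyde oxidase, had 32.1 and 22.1 CPM in IMQ+VEH and 10.2 CPM in IMQ (log2 fold change 1.40, SE 0.36, adjusted p = 0.144 by edgeR). Abcc3, an export pump for organic anions, had 17.5 and 34.3 CPM in IMQ+VEH and 11.7 CPM in IMQ (1.14, SE 0.41). Ephx1 had 35.3 and 38.4 CPM in IMQ+VEH and 18.9 CPM in IMQ (0.97, SE 0.30). In each of these genes both IMQ+VEH libraries were the higher. Values were 0.93 (SE 0.32) for Gstm1, 1.04 (SE 0.48) for Gstt1, 0.79 (SE 0.34) for Mgst1 and 0.62 (SE 0.28) for Gstp1. Mgst1, a membrane-bound transferase with the highest mean FPKM of its group, had 295 and 349 CPM in IMQ+VEH, against 186 CPM in IMQ. In IMQ+IDMF it had 327 CPM, with a log2 fold change of 0.02 (SE 0.33) over IMQ+VEH.

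**Figure D4:**
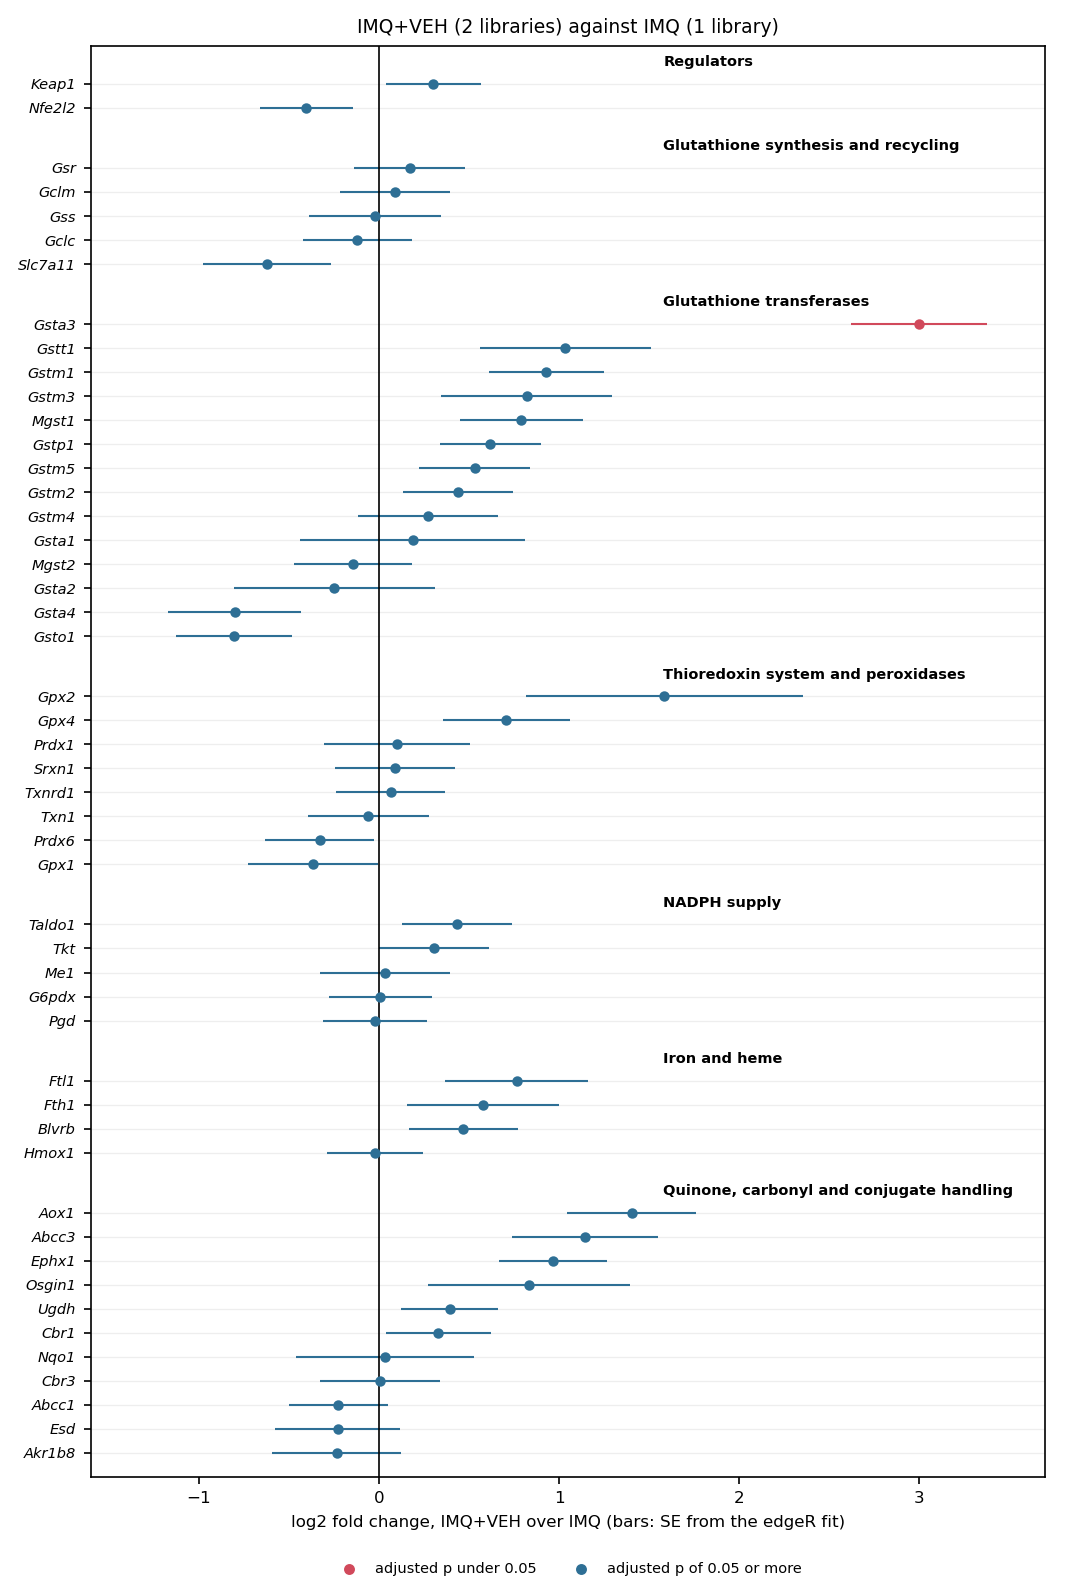
Fitted log2 fold change of IMQ+VEH (2 libraries) over IMQ (1 library) for the 49 genes, by role, with SE bars from the fit. Gsta3, at 3.0, is the only member past the threshold, and Gsto1, at -0.80, is the lowest.

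Fewer members leaned the other way. Gsto1, an omega-class transferase, had 71.3 and 122.2 CPM in IMQ+VEH, against 168.6 CPM in IMQ, and its log2 fold change of -0.80 (SE 0.32, adjusted p = 0.466 by edgeR) was the lowest of the members. Gsta4, which conjugates the lipid aldehyde 4-hydroxynonenal, had 11.8 and 22.1 CPM in IMQ+VEH and 29.5 CPM in IMQ (-0.80, SE 0.37). Slc7a11 had -0.62 (SE 0.36) and Nfe2l2 had -0.40 (SE 0.26). Prdx6 and Gpx1, a pair of peroxidases, had -0.33 (SE 0.30) and -0.37 (SE 0.36). None of these 6 passed the adjusted threshold. Gpx2 (1.59, SE 0.77) had no single direction, since replicate 1 lay below IMQ and replicate 2 above it. Nqo1 likewise had 0.04 (SE 0.50), with -1.03 for replicate 1 and 0.65 for replicate 2.

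Markers of sebaceous gland, fat and skeletal muscle were higher in the lotion libraries than in IMQ. The 9 sebaceous gland markers summed to 5248 and 4771 CPM in IMQ+VEH replicates 1 and 2, 6027 CPM in IMQ+IDMF and 2090 CPM in IMQ, and 9 of 9 were above IMQ in all 3 lotion libraries. The 8 adipocyte markers summed to 2433 and 1739 CPM in IMQ+VEH, 2007 CPM in IMQ+IDMF and 697 CPM in IMQ (8 of 8 above IMQ in all 3). Skeletal muscle markers summed to 29020 and 20470 CPM in IMQ+VEH, 27360 CPM in IMQ+IDMF and 15280 CPM in IMQ. Of these, 9 of 9 were above IMQ in all 3 lotion libraries. In contrast, each of 10 hair follicle markers was lower in both IMQ+VEH libraries than in IMQ, with sums of 12.7 and 14.1 CPM in IMQ+VEH, 34.0 CPM in IMQ+IDMF and 86.7 CPM in IMQ. Neutrophil markers summed to 4528 and 2198 CPM in IMQ+VEH, 1754 CPM in IMQ+IDMF and 8716 CPM in IMQ. Of these markers, 3 of 9 were lower and 2 of 9 higher in both IMQ+VEH libraries than in IMQ. S100a8 and S100a9 made up most of each sum, at 3595 and 5043 CPM in IMQ. The sums thus describe these genes more than the list. The fibroblast markers were higher than in IMQ in both IMQ+VEH libraries for 8 of 10. Differentiated keratinocyte markers were lower than in IMQ in both for 8 of 10, with 0 higher in both. Basal keratinocyte markers were lower in both for 5 of 7, with 1 higher in both. The part of these cell types in the rise of Gsta3 and in the values of Aox1, Mgst1 and the ferritin genes, which did not pass the test, was not tested, and with 1 IMQ library the lotion and the animal cannot be told apart.

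IMQ+IDMF against IMQ was 1 library against 1 and had no replicate check. It shares its IMQ library with the previous comparison. IMQ+IDMF was over 1.5-fold above IMQ for 15 members (14.5% of all genes) and over 1.5-fold below it for 0 (10.7%), with a median difference of 0.24 in log2 CPM, against 0.002 over all genes. Differences were 2.94 for Gsta3, 2.64 for Gpx2, 1.49 for Abcc3, 1.36 for Gstm1 and 1.21 for Aox1. The lowest were -0.48 for Gsto1 and -0.47 for Gpx1. Nqo1 had 0.58, Slc7a11 had -0.40 and Hmox1 had -0.25.

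Further genes of the same pathways were looked up from a second list. Of 48 listed (cofactors of NRF2, other peroxiredoxins, transferases, superoxide dismutases and exporters), 46 were tested. By edgeR 0 were called in either comparison. The unadjusted p was under 0.05 for 0 (compound) and 7 (vehicle against IMQ), against 306 and 1327 of all 15068 genes. DESeq2 called 0 and 1 (Gstz1) of the 46. The median log2 fold change was -0.02 for IMQ+IDMF over IMQ+VEH and 0.08 for IMQ+VEH over IMQ. In IMQ+IDMF, 8 of 46 (17.4%, against 27.6% of all genes) lay above both IMQ+VEH libraries and 13 (28.3%, against 27.4%) below both. Both IMQ+VEH libraries were above IMQ for 22 of 46 (47.8%, against 33.5% of all genes) and below it for 12 (26.1%, against 35.0%). IMQ was the lowest library for 21 (45.7%, against 28.9%). The shares above IMQ and with IMQ lowest were near those of the 49 members (46.9% for each), so they were not particular to the members. IMQ+VEH replicate 2 was over 1.5-fold above replicate 1 for 6 of 46 (13.0%), against 17 of the 49 members (34.7%). The highest fold changes over IMQ+VEH were those of Bach2, a repressor that competes for the same DNA elements (0.90, SE 0.49), Aldh3a1, an aldehyde dehydrogenase (0.44, SE 0.44), and Mafg, a small MAF partner of NRF2 (0.28, SE 0.30). The lowest were those of Gsto2 (-0.84, SE 1.15), Gpx7 (-0.60, SE 0.55) and Chac1, which degrades glutathione (-0.54, SE 0.34). In log2 CPM, IMQ+IDMF differed from replicates 1 and 2 by 0.44 and 1.59 for Bach2 and 0.17 and -1.33 for Gsto2. For Gpx7 the differences were -0.97 and -0.06. Mafg lay above both replicates and Chac1 below both. Gsto2 had only 11 counts in IMQ+IDMF, 12 and 28 in IMQ+VEH, and 8 in IMQ. Aldh3a1 had 82.6 CPM in IMQ+IDMF, 31.7 and 90.2 CPM in IMQ+VEH, and 23.7 CPM in IMQ. Like Gpx2, it was high in IMQ+IDMF and IMQ+VEH replicate 2 and low in the other 2 libraries. Hcar2, the receptor for monomethyl fumarate, had 89.2 CPM in IMQ+IDMF, 80.3 and 104.4 CPM in IMQ+VEH, and 105.8 CPM in IMQ (-0.05, SE 0.28).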

How the data were processed

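Skin RNA of the 4 libraries was sequenced single-end at 50 cycles. The authors deposited, per library, 1 table of 20611 gene symbols with a raw count and an FPKM value per gene, per the file headers. Per the submitters' processing notes, the build names are mm10 and GRCm38 and the tools HTSeq, Cufflinks and TopHat2, with no roles given. Versions, annotation, strand setting and handling of multi-mapped reads are not stated.

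Counts were tested with edgeR 4.0.16 (R 4.3.3): filterByExpr by group (about 10 counts in 1 library, total of at least 15), TMM scaling, 1 mean per group, quasi-likelihood F test, two-sided, Benjamini-Hochberg adjustment over 15068 genes, threshold 0.05. Residual degrees of freedom numbered 1 (the replicated group) and prior ones 11.2; the single libraries are taken to vary as that group did. The SE is the fold change over the square root of F. Differences between libraries are in log2 CPM with a prior count of 2. A count of 3 equals 0.107 to 0.146 CPM, for counting error only. The fit was run on simulated data as a check of the code. Alternatives were DESeq2 1.42.0, other scalings and filters, FPKM with pseudocounts of 0.1 and 1, and leaving out libraries.

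The members and lists were chosen with earlier results of these data known. Members given in every library were the regulators, common readouts, any called, those with IMQ+IDMF outside all 3 others by 0.2, and the highest and most variable of each role. Other members named were chosen after their values were seen. Positions and 50-base windows (longest coding transcript of each gene) come from GENCODE M21 (GRCm38), promoters from RefSeq.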

Additional observations from a re-analysis of the deposited data

How the results depend on the processing

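The count of members called stayed at 0 for IMQ+IDMF against IMQ+VEH under all 6 alternatives that gave a test. For IMQ+VEH against IMQ it stayed at 1 (Gsta3) under 4 of 5. Without a filter on low counts 4 were called (Abcc3, Aox1, Gpx2 and Gsta3), and over all genes 16 and 424 were called in place of 0 and 100. DESeq2 called 202 genes for IMQ+VEH against IMQ. The median of the members was 0.08 to 0.13 for the compound under the other scalings, filters, tests and FPKM, but -0.08 without IMQ+VEH replicate 1 and 0.32 without replicate 2. For IMQ+VEH against IMQ it was 0.17 to 0.22, and 0.33 and -0.06 without replicates 1 and 2. With 1 IMQ+VEH library in place of both (chosen after seeing the data), the members with IMQ+IDMF above IMQ+VEH numbered 15 to 41, those below 8 to 34, those with IMQ+VEH above IMQ 24 to 41 and those below 8 to 25.

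With IMQ and IMQ+VEH as 1 group, the fold change of IMQ+IDMF changed sign for 13 members: Nfe2l2 (-0.023), Slc7a11 (-0.013), Gsta3 (0.46), Gstm5 (0.085), Gstt1 (0.035), Mgst2 (-0.007), Prdx1 (0.01), Prdx6 (-0.083), Blvrb (0.12), Fth1 (0.05), Ephx1 (0.096), Aox1 (0.15) and Osgin1 (0.22). That setting adds the IMQ library to the controls. With total counts as the scaling, Osgin1 became 0.021 for the compound, and Gss, Pgd and Hmox1 became 0.041, 0.042 and 0.041 for IMQ+VEH against IMQ. All 17 values were within 1 SE of 0 before. No paired analysis was possible because the other groups have 1 library each. No test was possible without 1 IMQ+VEH library, since no residual degree of freedom is left. The least abundant member had a mean count of 152, and whether depth limited the calls was not tested.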
